A study of Bos taurus with 4 samples.

Results

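In bovine embryonic stem cells, 3320 small stretches of chromatin carried the Polycomb mark H3K27me3 with no H3K4me3 region over them. They were chosen by width and position of the authors' CUT&RUN peaks. H3K27me3 peaks listed in one library were kept where the second library had a peak sharing 1 bp or more with them, and the kept peaks of both were merged into regions. Of these, the regions under 10 kb that overlapped no H3K4me3 region built in the same way were kept, on chromosomes 1 to 22 and 24 to 29. They made up 32.4% of the 10254 H3K27me3 regions on these 28 chromosomes (95% Wilson interval 31.5% to 33.3%, counting error only), and the whole series held 15091 H3K27me3 regions. Without H3K27me3 replicate 1 there were 7161 such small regions (50.4% of regions) and without replicate 2 there were 8235 (54.7%), as peaks then neither needed a partner nor were merged with one. Once peaks of both marks that scored below their list's median were left out, there were 560 (10.5%). Because they are narrow, they held 21.9 Mb, or 11.8% of the length under H3K27me3 there. Width, presence in both replicates and lack of H3K4me3 are therefore properties of the choice and not findings.

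The cells were NBFR-bESCs, grown on mouse embryonic fibroblast feeders. Their N2B27 medium was supplemented with FGF2 (20 ng/mL), BSA (1%) and IWR-1 (2.5 μM), an inhibitor of WNT signalling. Each mark was profiled in 2 libraries of about 50000 cells, from which the feeder cells had been removed with microbeads. All 4 libraries share this background and none had a treatment or a control group. The labels give 1 female embryo, collected as a blastocyst on day 7, as the source, whereas the study speaks of a pair of independent lines, so the 2 replicates may be cultures or lines. The number of reads behind each list is unknown, and a peak that is missing from a list is reported as not listed. No gene positions on the assembly of the files, ARS-UCD1.2, were at hand. For this reason regions are named by position, no gene is assigned to them, and the cell type was not checked against marker genes.

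H3K27me3 is laid down by Polycomb repressive complex PRC2 at silent genes, where the complex can bind its own product and extend the mark along the chromatin. In mammals, stretches with the mark range from short ones at single CpG-rich promoters to wide domains over control genes of development such as the HOX clusters. H3K4me3 lies at the promoters of active genes and, together with H3K27me3, at the bivalent promoters of genes held ready for later use in pluripotent cells. In CUT&RUN an antibody against the mark guides a nuclease that cuts the chromatin around it free for sequencing. The small regions without H3K4me3 were described by 3 further measures, namely how strongly they scored, how far they lay from wide H3K27me3 domains and from H3K4me3, and where along the chromosomes they lay. The choice did not use these measures directly, but it limits the score through width and the distance to H3K4me3 through the lack of overlap. Merging also bears on the distance to wide domains. It made 403 peaks under 10 kb in replicate 1 and 176 in replicate 2 part of such a domain.

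On the 28 chromosomes, H3K27me3 was listed in 15046 peaks over 171 Mb for replicate 1, and in 14221 peaks over 185 Mb for replicate 2. For H3K4me3 there were 21407 and 19839 peaks, over 58.7 Mb and 58.8 Mb. Most H3K27me3 peaks were small, with 68.7% of them under 10 kb in replicate 1 and 64.6% in replicate 2. Of these small peaks, 83.3% in replicate 1 and 74.2% in replicate 2 overlapped a peak of the other replicate, against 99.2% and 98.2% of the peaks of 10 kb or more. Of all small peaks, 32.7% and 36.5% came to lie in a small region without H3K4me3. Others, 2582 in replicate 1 and 1282 in replicate 2, were part of a region of 10 to 50 kb without H3K4me3, because peaks of the other library extended or joined them.

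The small regions ranged from 400 bp to 9800 bp in width, with a median of 6600 bp and a middle range from 5200 to 8200 bp. Regions under 2 kb were rare, with 5 below 1 kb and 14 from 1 to 2 kb. The width limit did not fall in a gap of the distribution. There were 64 regions of 9800 bp inside it and 76 regions of 10000 bp without H3K4me3 just outside it. The widest member by position, at chr1:2226401-2236200, had a peak of 5400 bp in replicate 1 and of 8600 bp in replicate 2. The first region outside the limit, at chr1:641601-651600, had 2 peaks of 8800 bp together in replicate 1 and 1 peak of 9000 bp in replicate 2. By the length under peaks its libraries were thus no wider than those of some members. From the first edge to the last, however, its 2 peaks in replicate 1 spanned the full 10000 bp, which no member can reach.

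In 3231 small regions, or 97.3%, each replicate had exactly 1 peak. In these the replicate 1 peak had a median width of 5000 bp (middle range 3800 to 6600 bp) and the replicate 2 peak one of 5600 bp (4200 to 7000 bp). The replicate 2 peak was the wider in 56.3% of them and the replicate 1 peak in 38.7%. The peaks of both replicates shared a median of 69.4% of the region. Their starts differed by a median of 600 bp and their ends by 800 bp, which is a few of the 200 bp windows in which peaks were made, and 63 regions had the same start and end in both libraries. In 25% of the regions both peaks shared 53.3% of the length or less, so single edges can differ by several kb. Across these regions the peak widths of the libraries were weakly related (Spearman's rho 0.37 over 3231 regions) and the scores per window more so (rho 0.58). These values describe pairs of peaks that were chosen to overlap.

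The lists give a whole number as the score of each peak, without saying what it measures. It was compared only by its rank within a list, as the share of the list at or below it. For these ranks the whole list of a library was used, with 24430 H3K27me3 peaks in replicate 1 and 21244 in replicate 2. The whole list includes peaks on the chromosomes and unplaced sequences that the rule leaves out. Ranks are therefore not relative to the 15046 and 14221 peaks of the 28 chromosomes alone. In the small regions the score was 35 at the lowest, 127 at the median and 776 at the highest in replicate 1, and 45, 210 and 999 in replicate 2. The median peak ranked at 33.2% of its list in each replicate. Both libraries were below their list's median score in 73.5% of the small regions and at or above it in 11.1%. Score followed width, with a rho of 0.82 in replicate 1 and 0.84 in replicate 2 across the 3231 regions, so a low score is tied to the choice of narrow regions.

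For this reason the score was also divided by the number of windows of the peak. By score per window the small regions ranked at a median of 38.7% of the list in replicate 1 (middle range 19.2% to 61.7%) and 39.2% in replicate 2 (19.2% to 61.3%). Regions of the same width class that did overlap H3K4me3, of which there were 1514, ranked at 72.1% and 73.7%. Their median width was 6400 bp, close to that of the small regions without H3K4me3. The gap between these classes had the same direction at each width. Under 4 kb the ranks were 63.0% and 65.9% without H3K4me3 (301 regions), above the list median, and 81.7% and 82.8% with it (224 regions). From 4 to 6 kb they were 42.5% and 42.4% without H3K4me3 and 68.1% and 67.1% with it. Among regions of 6 to 8 kb the ranks were 31.8% and 32.7% without H3K4me3 (1112 regions) and 68.8% and 72.3% with it (476 regions). Among those of 8 to 10 kb they were 34.3% and 34.0% without H3K4me3 and 74.2% and 74.9% with it. The difference between these classes was larger than the difference between replicates at each width. Regions of 10 to 50 kb without H3K4me3 ranked at 58.5% and 57.5%, and those of 50 kb or more at 91.6% and 90.7%, where the highest of the region's peaks is given.

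**Figure D1:**
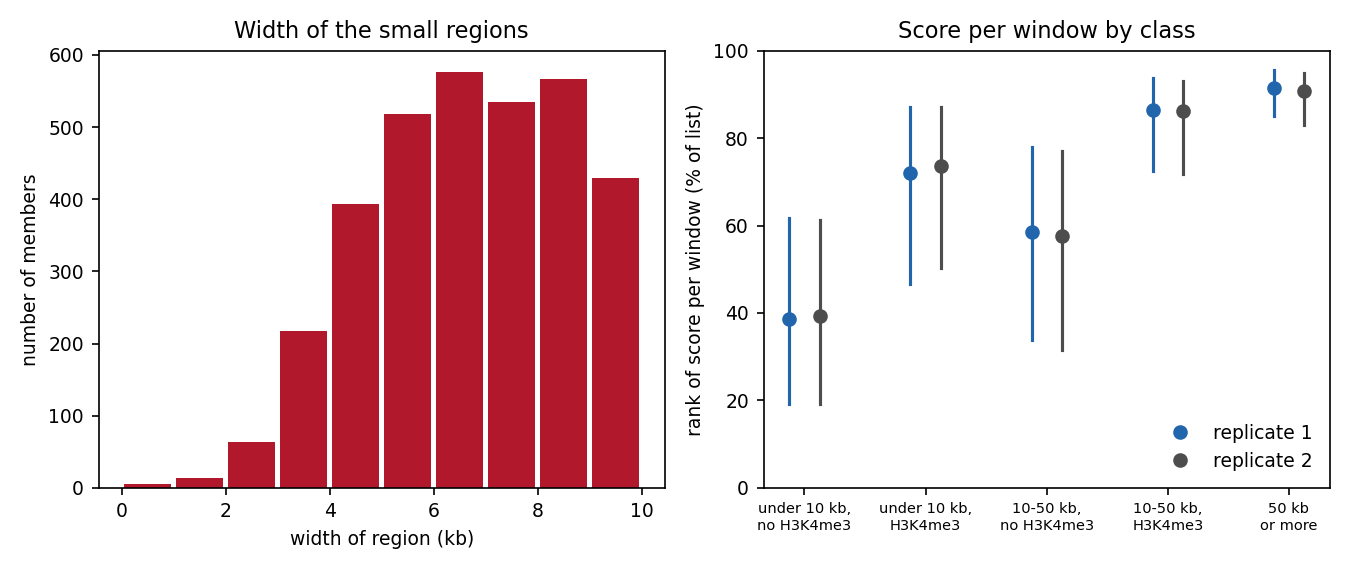
Left, number of small H3K27me3 regions without H3K4me3 by width in steps of 1 kb. Right, rank of the score per window within the list of each replicate for 5 classes of H3K27me3 region, as median (point) and middle range (line). The small regions without H3K4me3 have the lowest medians, 38.7% and 39.2%, and their middle range in replicate 1, from 19.2% to 61.7%, lies wholly below that of wide domains, from 85.1% to 95.6%.

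The highest rank in both libraries among the small regions was that of chr21:69785401-69794800, by the lower of its 2 ranks. Its peak scored 776 in replicate 1, at or above 88.6% of the list, and 999 in replicate 2, at or above 81.8%. It lay 23 kb from H3K4me3, 2.8 kb from the next H3K27me3 region and 566 kb from a wide domain. The second, chr19:24109001-24118200, scored 670 and 971 and lay 66.2 kb from a wide domain of 172 kb. The third, chr25:36742801-36750000, scored 571 and 955 and lay 5.4 kb from a wide domain of 68.6 kb. All 3 had another H3K27me3 region within 3 kb.

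Wide H3K27me3 domains were defined as regions of at least 50 kb, with or without H3K4me3, and there were 621 of them. From its edge, a small region lay at a median distance of 707 kb from the nearest of them, with a middle range from 163 to 2721 kb. The median was 1057 kb without H3K27me3 replicate 1 and 1490 kb without replicate 2, and it was 79.8 kb when domains of 20 kb or more counted as wide and 2745 kb when only those of 100 kb or more did. Within 50 kb of a wide domain lay 410 small regions, or 12.3% (95% Wilson interval 11.3% to 13.5%), and within 10 kb lay 168, or 5.06%. The share within 50 kb was 7.99% without H3K27me3 replicate 1 and 6.68% without replicate 2. It was 43.1% with domains of 20 kb or more as wide and 3.16% with those of 100 kb or more. Of the chromosome length that is outside wide domains and H3K4me3 regions, 1.83% is within 50 kb of a wide domain and 0.423% within 10 kb. Since a region reaches farther than a point, the share was also taken from the centre of each region, which gave 11.7% within 50 kb and 4.52% within 10 kb. These are 6.35 and 10.7 times the shares of the length. Most small regions were thus far from wide domains, while the neighbourhood of these domains held more of them per length than other parts of the chromosomes.

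The number of small regions per Mb of available length fell with each step of distance from a wide domain. It was 15.3 per Mb from 0 to 10 kb, 7.26 from 10 to 50 kb, 7.05 from 50 to 100 kb, 4.10 from 100 to 500 kb, 2.63 from 500 to 1000 kb and 1.30 from 1 to 5 Mb, and it was 0.457 beyond 5 Mb. The latter zone is 51.1% of the available length and held 540 small regions. Small regions with H3K4me3 were at 0.919 per Mb from 0 to 10 kb and from 10 to 50 kb, and reached 1.18 at most, from 100 to 500 kb. Farther away they also became fewer, with 0.892 per Mb from 500 to 1000 kb, 0.721 from 1 to 5 Mb and 0.475 beyond 5 Mb. The length used leaves out H3K4me3 regions, over which this class lies, so its densities are not on the same footing. From the edge, 2.64% of them lay within 50 kb of a wide domain (1.95% to 3.58%). By the same measure, regions of 10 to 50 kb without H3K4me3 were the more frequent near wide domains, with 23.2% within 50 kb (21.8% to 24.7%). Their centres were at 9.40 per Mb from 0 to 10 kb, below the small regions without H3K4me3. From 10 to 50 kb they were at 17.8 per Mb, above them. The centre of a wider region lies farther inside its own edge, which lowers its density from 0 to 10 kb. From the edge the order was the reverse, with 12.1% of regions of 10 to 50 kb without H3K4me3 within 10 kb. For the small regions without H3K4me3 this share was 5.06%. No test was run on these differences, since regions are not replicates of a condition. The intervals of the 3 classes cover counting error only and treat each region as independent, so they are not used to separate the classes.

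**Figure D2:**
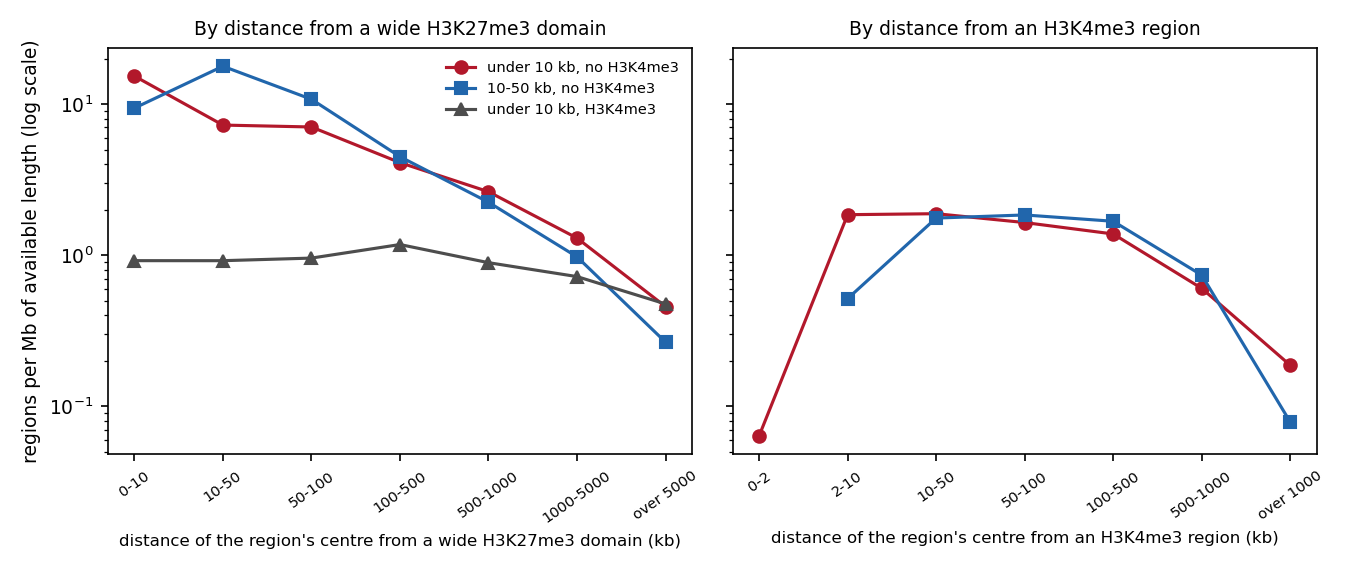
Regions per Mb of the length outside wide domains and H3K4me3 regions, on a log scale, by the distance of the region's centre from the nearest wide H3K27me3 domain (left) and the nearest H3K4me3 region (right). Small regions without H3K4me3 fall from 15.3 per Mb next to wide domains to 0.457 beyond 5 Mb, while by distance from H3K4me3 they stay between 1.38 and 1.88 per Mb from 2 to 500 kb.

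The excess near wide domains was present on each of the 28 chromosomes, taken from the edge or from the centre. It was also present when the rule was run on the lists of a single replicate, for both marks and for the wide domains. In replicate 1 alone 6.68% of 8138 small regions lay within 50 kb of one of 400 wide domains, against 1.22% of the length. In replicate 2 alone it was 7.98% of 7153 small regions, with 490 wide domains and 1.48% of the length. The single lists gave more small regions and fewer wide domains than the regions shared by both, since merging both libraries widens regions and leaves out peaks of 1 library. Wide domains and small regions were both more frequent towards the distal end of the chromosomes. Within the middle 80% of each chromosome, 11.9% of 2238 small regions lay within 50 kb of a wide domain against 1.42% of the length. In the last 10% of each chromosome these shares were 18.1% and 5.71%, and in the first 10% they were 4.42% and 1.56%.

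The small regions near wide domains ranked higher than those far from them, in both libraries. The 410 within 50 kb ranked at a median of 51.6% of the list by score per window in replicate 1 and 49.1% in replicate 2. The 1419 regions more than 1 Mb away ranked at 36.3% and 37.9%, and their median width was the same, 6600 bp. Seen from the domains, 343 of the 621 wide domains had no small region within 50 kb for which they were the nearest one. Of the others, 183 had 1 and 95 had 2 or more, and at most 5 were found around a domain. A domain with 5 lay at chr26:42474401-42536000, with a width of 61.6 kb, and another at chr19:62312601-62364200, with 51.6 kb.

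The small region nearest to a wide domain, at chr6:104240801-104244600, was separated from it by a single window. The next were chr1:134394001-134399000 and chr2:135036001-135044800, each 400 bp from a wide domain. Within a list, neighbouring H3K27me3 peaks were at least 1200 bp apart, so gaps as short as these arise only between peaks of different libraries. At the chr6 region the peak ended at 104244600 in replicate 1 and at 104243400 in replicate 2. At the other extreme, chr4:256001-264600 lay 68528 kb from the nearest wide domain of its chromosome, chr4:273201-281200 lay 68511 kb from it and chr4:4206801-4212800 64580 kb. These 3 share 1 chromosome with few wide domains, 12 in all. By score per window their peaks ranked from 1.6% to 45.1% of the list.

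Around H3K4me3 the picture was different. A small region lay at a median edge distance of 57.9 kb from the nearest of the 17728 H3K4me3 regions of these chromosomes, with a middle range from 18.0 to 152 kb. The median was 105 kb once peaks of both marks that scored below their list's median were left out. That setting also leaves fewer H3K4me3 regions, with 8.06% of the length within 10 kb of one against 11.6%. With the peaks of either replicate the median was 43.8 kb. Within 10 kb of H3K4me3 lay 547 small regions, or 16.5% (15.3% to 17.8%), against 11.6% of the length. Measured from the centre of the region, the share within 10 kb was also 11.6%, so the excess seen from the edge was not present from the centre. The centre of a region that does not overlap H3K4me3 cannot lie closer to it than a part of its own width, which lowers this value. By chromosome, the share was above that of the length on 19 of 28 from the edge and on 11 of 28 from the centre. From 2 to 10 kb the density was 1.85 small regions per Mb, from 10 to 50 kb it was 1.88, from 50 to 100 kb 1.64 and from 100 to 500 kb 1.38. From 500 to 1000 kb it was 0.603 per Mb, and beyond 1 Mb it was 0.187, where 19 centres were found.

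Distance from H3K4me3 went with little difference in score. The 547 small regions within 10 kb of H3K4me3 ranked at 38.1% and 39.5% by score per window, and the 1205 that were more than 100 kb from H3K4me3 at 40.3% and 40.7%. The H3K4me3 regions next to the near ones were 520 in number with a median width of 3000 bp, against 3200 bp for all. Of these 520, 162 or 31.2% were themselves under another H3K27me3 region, against 24.7% of all H3K4me3 regions. The small regions farthest from H3K4me3 lay close together on chromosome 12, at chr12:7344401-7347800, chr12:7229201-7234800 and chr12:7223601-7227200. They were 2119, 2004 and 1998 kb from the nearest H3K4me3 region and 24698 to 24819 kb from a wide domain. The first had a peak of 3400 bp in replicate 1 and of 800 bp in replicate 2, with scores of 103 and 69. By score per window these peaks ranked at 56.9% and 94.2% of the list. The other 2 were neighbours, 2 kb apart, and scored 184 and 146 in replicate 1, against 357 and 261 in replicate 2. By score per window they ranked from 78.3% to 84.2% in replicate 1, and the first of them at 85.4% in replicate 2.

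The closest neighbour of a small region was more often another H3K27me3 region than H3K4me3, which was the nearer for 661 of them, or 19.9%. The next H3K27me3 region lay at a median of 5.0 kb from the edge. Within 10 kb, 844 small regions (25.4%) had another H3K27me3 region on both sides, 1250 (37.7%) on one side and 1226 (36.9%) on neither. The last group, the small regions that stand alone, was 36.9% here (35.3% to 38.6%), 80.1% of small regions with H3K4me3 (78.0% to 82.1%) and 20.5% of regions of 10 to 50 kb without H3K4me3 (19.2% to 21.9%). Where a neighbour lay within 10 kb, the nearest was a small region without H3K4me3 in 40.1% of cases, a region of 10 to 50 kb without H3K4me3 in 40.5% and a wide domain in 5.59%. These classes made up 32.4%, 32.1% and 6.06% of all regions. A small region with H3K4me3 was the nearest neighbour in 3.49%, against 14.8% of all regions.

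Small regions that stood alone had lower scores in both libraries. They ranked at 31.8% and 32.0% by score per window in replicates 1 and 2, and those with a neighbour at 42.4% and 43.4%, at an equal median width of 6600 bp. They also lay farther from wide domains, at a median of 1378 kb against 441 kb, and 3.43% of them were within 50 kb of one. A small region within 10 kb of a wide domain counts as having a neighbour, so part of this difference is set by the split. No mark of either kind lay within 50 kb of 286 small regions (8.61%) or within 100 kb of 139 (4.19%). On the other side, 1146 small regions (34.5%) had another H3K27me3 region within 2 kb. When regions at most 2 kb apart were joined before the width was measured, 2180 regions met the rule and 56.3% of them stood alone. With peaks below the median score of their list left out, 60.9% of 560 small regions stood alone. Both settings remove neighbouring H3K27me3 regions, so part of these higher shares is set by them.

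Consecutive small regions also formed runs, with gaps of at most 10 kb and no other H3K27me3 region between them. There were 2294 runs of 1, 357 of 2, 75 of 3, 10 of 4, 7 of 5 and 2 of 6. The first of the runs of 6 spanned 58.4 kb at chr11:93643601-93702000, and its 6 members, from 2400 to 9000 bp, covered 37.6 kb of it. It lay 179 kb from a wide domain and 291 kb from H3K4me3. Its first member, chr11:93643601-93646000, had the same edges in both libraries, with scores of 96 in replicate 1 and 140 in replicate 2. Its second, chr11:93648601-93657600, was a peak of 4800 bp in replicate 1 and of 9000 bp in replicate 2, with scores of 146 and 377. The replicate 2 peaks were the wider in 5 of these 6 members and equal in 1. The other run of 6 spanned 55.2 kb at chr7:13445601-13500800, with members from 4200 to 9000 bp that covered 43.0 kb, and lay 186 kb from a wide domain and 69.0 kb from H3K4me3. A run of 5 on chromosome 15, at chr15:82000001-82064400, had fewer members and a longer span, 64.4 kb, of which 36.0 kb was covered.

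**Figure D3:**
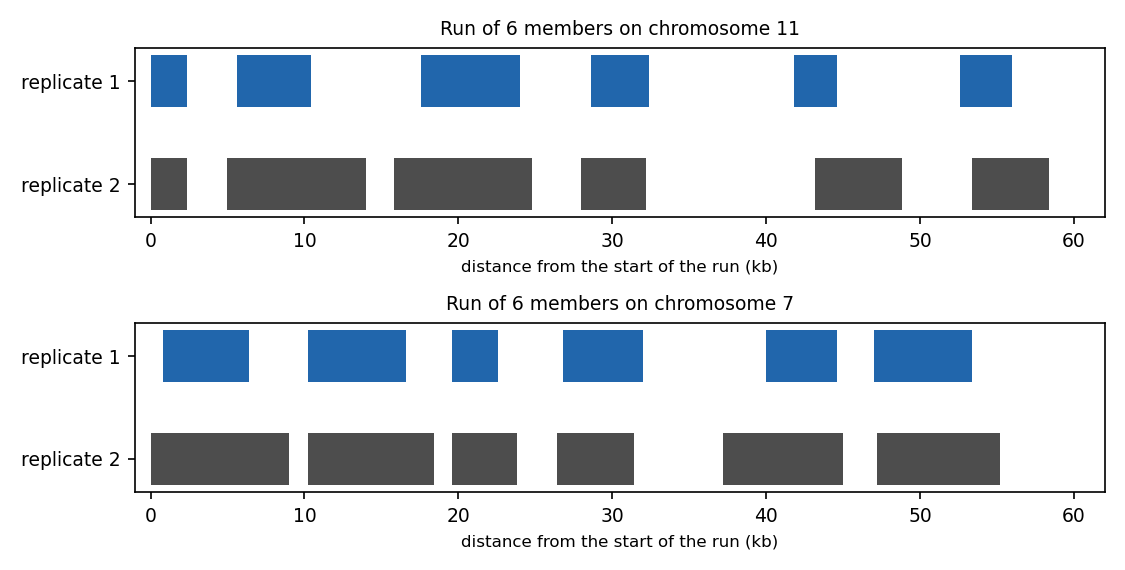
Peaks of the 2 H3K27me3 libraries in the runs with the most small regions (6 each), on chromosomes 11 and 7, drawn to scale against the distance in kb from the start of the run. Each bar is the peak of a member in 1 library; the bars of the libraries overlap by the rule, while their edges differ by several kb in places.

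Small regions without H3K4me3 were found on all 28 chromosomes, at 1.36 per Mb over 2434 Mb, with the end of a chromosome set at its last listed peak. Chromosome 25 had the most, 3.73 per Mb (158 regions), followed by chromosome 18 with 2.86 per Mb (188 regions). Chromosomes 6 and 12 had the fewest, with 0.637 per Mb (75 regions) and 0.677 per Mb (59 regions). As a share of the H3K27me3 regions of a chromosome the range was narrower, from 24.4% on chromosome 14 to 38.1% on chromosome 15, with 32.8% on chromosome 25 and 34.1% on chromosome 12. Across the 28 chromosomes, the density of small regions followed that of regions of 10 to 50 kb without H3K4me3 most closely (Spearman's rho 0.93). It followed the density of wide domains with a rho of 0.70, that of H3K4me3 regions with 0.66 and that of small regions with H3K4me3 with 0.47. All of these densities are from the same lists and rest on the same lengths, and short chromosomes had more small regions per Mb (rho -0.61 with length).

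**Figure D4:**
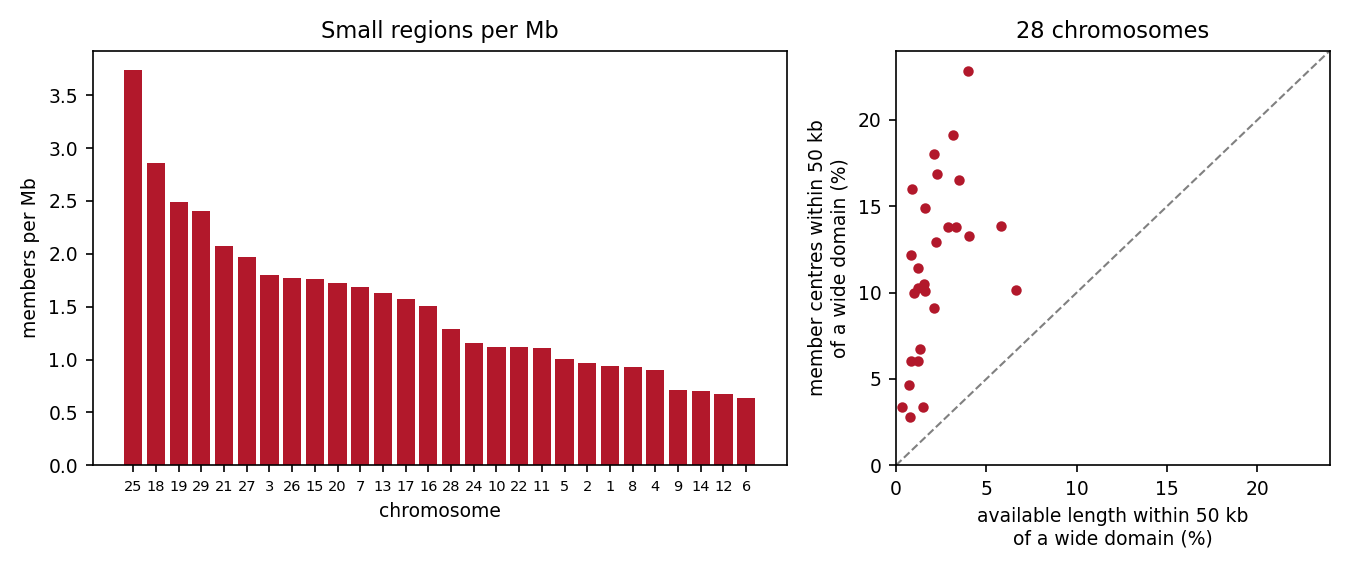
Left, small H3K27me3 regions without H3K4me3 per Mb on each chromosome, from 3.73 on chromosome 25 to 0.637 on chromosome 6. Right, share of their centres within 50 kb of a wide domain against the share of the available length within 50 kb, 1 point per chromosome; the dashed line marks equal shares, and all 28 points lie above it.

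Along the chromosome, small regions were most frequent towards the distal end. The last 10% of the length held 697 of them, or 21.0%, and the 10% before it 471, or 14.2%. The lowest share, 5.57%, was that from 30% to 40% of the length, and the first 10% held 11.6%. Bovine autosomes have their centromere at one end, which by convention is the start of the coordinates. The last 10% held 27.1% of regions of 10 to 50 kb without H3K4me3, 31.4% of the wide domains, 15.0% of small regions with H3K4me3 and 15.1% of H3K4me3 regions. On 24 of the 28 chromosomes more than 10% of the small regions lay in it, up to 46.0% on chromosome 20, and on chromosome 7 it held 2.67%. Small regions of the last 10% had a median width of 6600 bp and ranked at 41.0% and 39.9% by score per window, and those of the middle 80% had 6800 bp and ranked at 37.1% and 38.0%. In the first 10% they were somewhat narrower, with 6200 bp, and ranked at 43.2% and 45.6%.

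**Figure D5:**
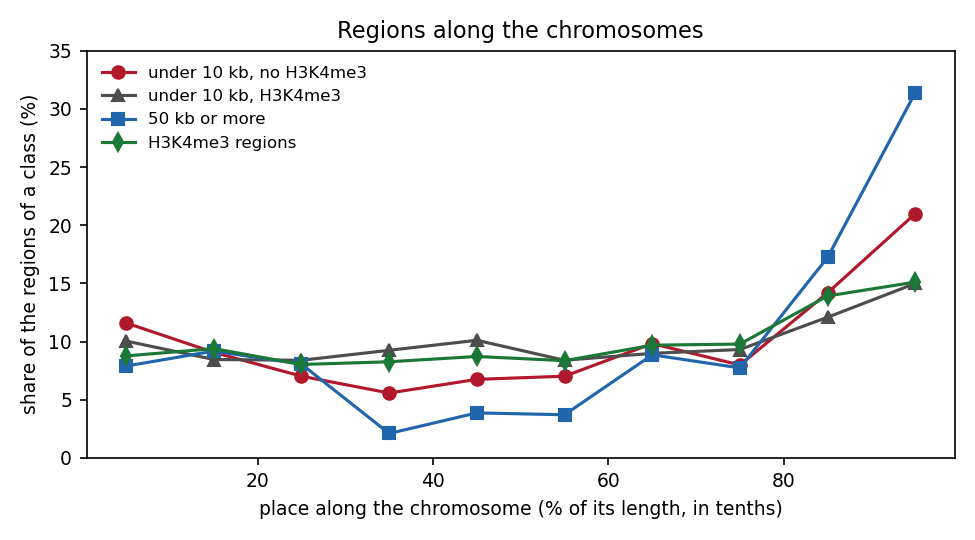
Share of the regions of a class, in %, in each step of 10% along the chromosome, pooled over 28 chromosomes from the first base to the last peak. Small regions without H3K4me3 rise to 21.0% in the last step, between wide domains (31.4%) and H3K4me3 regions (15.1%).

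In stretches of 1 Mb, small regions were spread thinly, with none in 1402 of 2449 stretches. In 49 stretches there were 10 or more, and these held 600 of them, or 18.1%. The densest stretch, chr7:9000001-10000000, had 18 small regions, with no wide domain and 1 H3K4me3 region. By contrast, chr18:7000001-8000000 had 17 beside 8 H3K4me3 regions and no wide domain, and chr1:129000001-130000000 had 17 with 2 wide domains and 5 H3K4me3 regions. Dense groups of small regions were therefore found both with and without wide domains in the same stretch.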

How the data were processed

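CUT&RUN libraries for H3K4me3 and H3K27me3 (2 replicates each, grouped by the labels) were used as the deposited peak lists. Per the labels and the study's methods, the authors trimmed reads with Trim Galore (cutadapt 1.18, per the submitters' processing notes), used BWA 0.7.17-r1188 for alignment to ARS-UCD1.2, discarded duplicate and low-quality alignments, and ran epic2 on each library in 200 bp windows, with more gaps allowed for H3K27me3. No control library is stated. The deposited lists hold peak positions and a score of the authors; replicates were not pooled. Positions are given counted from 1, with width as end + 1 - start.

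Overlaps, merging and edge distances were computed in Python 3.11.15 with numpy 2.4.6, pandas 2.3.3 and scipy 1.17.1, tested on simulated peaks, and gave the same 3320 and 410 regions as bedtools 2.31.1. The rule, the members and the classes were chosen with earlier results of these data known. Regions named by position follow a fixed rule: extremes of score rank, distance, width, run length and density. Shares carry Wilson intervals, which cover counting error only. Chromosomes 23 and X and unplaced sequences were left out by the rule. The planned comparison with annotated genes was not run, as the gene table at hand is of another assembly, ARS-UCD2.0. Alternatives are given at the end.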

Additional observations from a re-analysis of the deposited data

Results flagged for a closer look

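H3K4me3 peaks outside the shared regions lay over some of the small regions. In 94 of them (2.83%) an H3K4me3 peak was listed without an overlapping peak in the other replicate, in 66 of them in replicate 1 and in 31 in replicate 2, some of them in both. The share was 3.49% for regions of 10 to 50 kb without H3K4me3 and 6.44% for wide domains, which are wider and so offer more length to such peaks, and the shares are not compared for this reason. The count is given here because it exceeds the 3 that a count of 0 allows, which shows no excess over the rest of the chromosomes. No control library is stated in the sources used here. The peaks were narrow, with a median of 1000 bp and 1200 bp, and ranked low, at a median of 16.2% and 10.7% of the list by score and at most at 38.5% and 29.1%.

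The rule was also met by regions in places that it leaves out. There were 171 on chromosome 23 (3.26 per Mb), 885 on chromosome X (6.37 per Mb) and 246 on unplaced sequences. Their median width was 6600 bp on both chromosomes, and 17.5% and 30.3% of them lay within 50 kb of a wide domain.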

How the results depend on the processing

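No paired analysis was possible because no result comes from a test that could hold a replicate term. The rule was run on the lists of each replicate number alone, with the values in the report. An alternative is said to move a share when it differs by more than the SD between the lists of replicate 1 and of replicate 2 used alone, and to move the count of small regions when it differs by more than 1.5 times. The distance from the centre and the limit to the middle of the chromosomes were chosen after seeing the data. With the peaks of either replicate there were 6851 small regions, of which 9.40% lay within 50 kb of a wide domain, 18.9% within 10 kb of H3K4me3, and 32.6% stood alone. With peaks of both marks at or above the median score these values were 560, 17.0%, 11.8% and 60.9%. With regions joined over 2 kb they were 2180, 13.8%, 17.2% and 56.3%. A width limit of 5 kb gave 694 small regions and 18.2% near H3K4me3, and one of 20 kb gave 5495, with 14.3% near wide domains, 14.7% near H3K4me3 and 32.3% alone. With 1 library left out the count ranged from 3268 to 8235, the share near wide domains from 6.68% to 12.4%, that near H3K4me3 from 15.2% to 18.2% and that alone from 27.7% to 36.9%. Leaving out H3K27me3 replicate 1 gave 7161 small regions with 7.99% near wide domains, and leaving out H3K27me3 replicate 2 gave 8235 with 6.68%, where peaks neither needed a partner nor were merged with one. With chromosomes 1 to 29 and X, 16.2% lay near wide domains, 14.9% near H3K4me3 and 31.6% alone. The shares of the length were not computed for this set. With an overlap of 50% of the peak 15.7% lay near H3K4me3 and 39.0% alone, with H3K4me3 peaks of either replicate 18.9% near H3K4me3, from the centre 11.6% and in the middle of the chromosomes 17.0%. For wide domains of at least 20 kb or 100 kb, 43.1% and 3.16% of the small regions lay within 50 kb, against 5.18% and 0.707% of the length. Within 5 kb 49.6% stood alone, and within 50 kb 15.9%. In 6 of these alternatives (peaks of either replicate, an overlap of 50%, the median score, joined regions and both other limits for wide domains) the share near wide domains was 4.47 to 9.35 times that of the length. It was 6.35 times from the centre, and 2.84, 8.41 and 3.17 times in the first 10%, the middle and the last 10% of the chromosomes. Depth limits all of this, since the reads behind a peak that is not listed are unknown.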
